A study of Mus musculus with 12 samples.

Results

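The 10 genes described here lie on mouse chromosome 9 next to Cryab and Hspb2, the 2 genes deleted in the αB-crystallin/HspB2 knockout (KO) mouse. They are 2310014F07Rik, Pts, Sdhd, Timm8b, Dixdc1 and 2310030G06Rik on the side of lower coordinates and 1110032A03Rik, Fdxacb1, Alg9 and Ppp2r1b on the other side. These 10 of the 22923 gene symbols measured were picked by name, with the KO and WT values of these same libraries already known. The genotype differences below are therefore given as a description with no test, and the tests are kept for the diet comparisons and for genes outside the 10. Expression is given as FPKM, fragments scaled to transcript length and to the mapped fragments of the library, so that levels of different genes can be set side by side per length.

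The study asked how loss of αB-crystallin and HspB2 bears on the response of skeletal muscle to a high fat diet. The RNA came from hind limb muscle of 22-week-old males, with 3 WT and 3 KO mice on normal chow and 3 WT and 3 KO mice on high fat diet. All 12 mice have the background FVB in the labels and FVB/N in the methods, and they came from heterozygous breeding. The WT libraries carry the word Flox in their titles. The KO mice lacked Cryab and Hspb2 in every tissue, so the effects of the 2 genes, and of muscle and other tissues, cannot be told apart. The sources used here give neither the length of the deletion nor the strain in which it was made.

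Cryab and Hspb2 encode small heat shock proteins, chaperones that hold unfolding proteins in a soluble state and that are abundant in muscle. Their neighbors belong to unrelated pathways. Sdhd and Timm8b serve the mitochondrion, Pts the synthesis of tetrahydrobiopterin, Alg9 the assembly of sugar chains on proteins, Ppp2r1b the protein phosphatase 2A complex and Dixdc1 Wnt signaling.

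The genotype labels of 6 libraries conflict with their titles, namely those of all 3 WT mice on high fat diet, KO replicate 3 on chow and KO replicates 1 and 2 on high fat diet. Groups follow the titles. Grouped by that label instead, the KO minus WT difference of each of the 10 genes on high fat diet changes sign. Cryab lay between 412 and 837 FPKM in the 6 WT libraries and between 0.845 and 1.75 FPKM in the 6 KO libraries by title, and Hspb2 between 81.5 and 103.1 FPKM and between 0.353 and 1.92 FPKM. FPKM totals were 499509 to 691621 in 11 libraries. The total of 10656382 in KO replicate 3 on chow became 484182 without the microRNA gene Mir324. Reads per library are unknown. On chow, 3 libraries, WT replicate 2 and KO replicates 1 and 3, stood apart in 8 lymphoid markers, whose summed level was 78.4, 90.6 and 87.0 FPKM there and at most 7.17 FPKM in the other 9. Of the 6 muscle markers Ckm, Mb, Tnnt3 and Atp2a1 were high in all libraries, Myh4 was listed at 0 in all and Acta1 at 0 in WT replicate 1 on chow and KO replicate 2 on high fat diet, so a listed 0 need not mean that a transcript was absent.

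Positions are those of the GENCODE M21 annotation of GRCm38, the build of the files. The span of Cryab and Hspb2 is chr9:50751078-50756636. The closest neighbor is 2310030G06Rik on the minus strand, chr9:50739691-50746536, 4.54 kb away. Dixdc1 follows on the same strand at chr9:50662752-50739517, with 173 bp between the 2 genes. Farther on are Timm8b on the plus strand at chr9:50603910-50605320, Sdhd on the minus strand at chr9:50596357-50603812, Pts on the minus strand at chr9:50521617-50528724 and 2310014F07Rik on the minus strand at chr9:50488795-50507823. Their distances from the deleted genes are 146, 147, 222 and 243 kb. On the other side 1110032A03Rik lies on the minus strand at chr9:50762828-50775520, 6.19 kb away. Fdxacb1 at chr9:50768236-50773348, Alg9 at chr9:50775019-50843542 and Ppp2r1b at chr9:50845301-50894229 are on the plus strand, 11.6, 18.4 and 88.7 kb away. The 10 genes span 405 kb, in which the files list 20 genes in all.

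Some of these genes share bases with a gene on the opposite strand. The whole 5113 bp of Fdxacb1 lie within 1110032A03Rik, 502 bp of Alg9 also do, 2310014F07Rik shares 10958 bp with Plet1 and Ppp2r1b shares 1429 bp with Sik2. The library kit does not mark strand, so reads from the shared bases cannot be told apart and the values of these genes are uncertain to that extent. Plet1, an epithelial surface protein gene that the files list as 1600029D21Rik, was between 0.029 and 0.261 FPKM in all 12 libraries.

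The bases before the start sites are shown for 3 of the genes, those of the closest neighbor with its low KO values, of Dixdc1 beside it and of Ppp2r1b, the 1 gene that was higher in KO mice. They are 250 bases of RefSeq's GRCm38.p6 sequence, 5′ to 3′ on the strand of the gene, with motif matches in capitals. The motifs searched on both strands were the TATA box TATAAA, the CCAAT box CCAAT, the GC box GGGCGG, the heat shock element core GAANNTTC and the E-box CANNTG. Windows lie at chr9:50746528-50746777, minus strand, for 2310030G06Rik, at chr9:50737736-50737985, minus strand, for the second of the 2 Dixdc1 starts and at chr9:50856674-50856923, plus strand, for Ppp2r1b. These RefSeq starts lie within the GENCODE spans given above.
2310030G06Rik: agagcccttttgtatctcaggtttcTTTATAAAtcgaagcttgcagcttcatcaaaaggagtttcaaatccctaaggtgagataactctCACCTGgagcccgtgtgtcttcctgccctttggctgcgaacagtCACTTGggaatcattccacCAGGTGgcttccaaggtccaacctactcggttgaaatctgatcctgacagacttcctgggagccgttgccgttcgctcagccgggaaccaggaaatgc
Dixdc1: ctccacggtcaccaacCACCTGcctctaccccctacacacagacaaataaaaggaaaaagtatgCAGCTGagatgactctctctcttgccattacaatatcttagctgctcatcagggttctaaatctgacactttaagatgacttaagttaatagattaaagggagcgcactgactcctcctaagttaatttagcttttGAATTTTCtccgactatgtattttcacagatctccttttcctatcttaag
Ppp2r1b: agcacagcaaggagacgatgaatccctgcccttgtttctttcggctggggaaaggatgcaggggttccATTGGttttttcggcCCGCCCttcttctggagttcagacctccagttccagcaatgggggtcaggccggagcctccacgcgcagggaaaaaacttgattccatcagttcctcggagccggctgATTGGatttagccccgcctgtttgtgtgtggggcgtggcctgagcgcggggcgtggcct
In the first window the capitals mark a TATA box that reads on both strands and 3 E-boxes. In the second they mark 2 E-boxes and, near the start, 1 heat shock element core. In the third they mark 2 CCAAT boxes and 1 GC box, all read from the opposite strand. The window of the other Dixdc1 start, not shown, holds none of these motifs.

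All 10 genes had at least 1 such window, 11 in all. A TATA box was found in those of 2 genes, a CCAAT box in 2, a GC box in 3, a heat shock element core in 1 and an E-box in 5. Of the 32851 windows of the same length in the table, 12.4% hold a TATA box, 33.8% a CCAAT box, 32.7% a GC box, 6.69% a heat shock element core and 66.2% an E-box. A match describes the letters only, and a motif that was not found is missing from these letters and no more.

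Sdhd and Timm8b, the pair of mitochondrial genes, start back to back. Between their RefSeq starts lie 51 bases at chr9:50603850-50603900, printed on the plus strand because both genes are read away from them.
between Sdhd and Timm8b: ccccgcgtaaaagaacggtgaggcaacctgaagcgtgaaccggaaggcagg
None of the 5 motifs lies whole within these bases. A GC box in the window before the Timm8b start crosses their edge on the Sdhd side. In the GENCODE annotation the gap between the 2 genes is 97 bp.

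The levels in WT muscle on chow differed widely between the genes. Sdhd was highest at 305 ± 27.1 FPKM (SD, n = 3), then Timm8b at 136 ± 19.2 FPKM and Pts at 13.0 ± 0.309 FPKM. Each of these stood apart from the next in order in all 3 libraries. From 1110032A03Rik at 7.65 FPKM through Ppp2r1b, Alg9, 2310014F07Rik and 2310030G06Rik to Fdxacb1 at 3.24 FPKM, each gene overlapped the next, so the order of these neighbors in rank is not set beyond the spread. Across the range it is, as 1110032A03Rik lay above Alg9 and all genes ranked below it in every WT library on chow. Dixdc1 was lowest, under 1 FPKM in all 12 libraries, and so did not pass the filter of 1 FPKM in 3 libraries for testing. The other 9 genes passed it, 2310014F07Rik and 2310030G06Rik through their WT libraries alone.

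In KO mice the mean was lower than in WT mice for 9 of the 10 genes on chow and for the same number on high fat diet, Ppp2r1b being the exception on each. All 3 KO libraries lay below all 3 WT libraries for 7 of the 10 genes on chow, a pattern that 10.2% of the 11945 tested genes showed, and for 7 on high fat diet, against 10.7%. On high fat diet 1 gene, Ppp2r1b, had all KO libraries above all WT libraries, against 13.0% of tested genes, and on chow 0 genes did, against 8.15%. For 6 genes the KO libraries were all lower on both diets, against 2.34% of tested genes. These 6 are 2310014F07Rik, Pts, Sdhd, Dixdc1, 2310030G06Rik and 1110032A03Rik, which are also the 6 genes on the minus strand. The median KO minus WT difference over the 10 genes was -0.38 on the log2(FPKM + 1) scale on chow and -0.33 on high fat diet, where over all tested genes it was -0.03 and -0.01. Since the genotype values chose the genes, nothing is read from these counts. The summed level of 4 macrophage markers was also separate between genotypes. It was 51.9 to 77.7 FPKM in WT and 80.4 to 117 FPKM in KO mice on chow. With high fat feeding it was 18.7 to 53.8 FPKM and 67.5 to 147 FPKM, Marco being at 0 in some libraries. Of the single markers Csf1r was separate on both diets, Cd68 on high fat diet alone and C1qa on chow alone. Marco overlapped on both. The sum of 4 tendon markers, Tnmd, Scx, Fmod and Thbs4, was 229 to 382 FPKM in WT and 67.8 to 168 FPKM in KO mice with high fat feeding. These ranges did not overlap, although those of Scx by itself did. On chow the sums overlapped, at 37.0 to 92.9 FPKM and 36.9 to 92.0 FPKM. The sum of 5 adipocyte markers was separate on chow, at 112 to 729 FPKM in WT and 815 to 1729 FPKM in KO mice. Taken singly, Cfd and Plin1 were separate there, while Adipoq, Lep and Cidec overlapped. None of these markers passed between genotypes, and their part in the differences of the 10 genes was not tested. The plot of all 10 genes by library shows the same values.

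**Figure D1:**
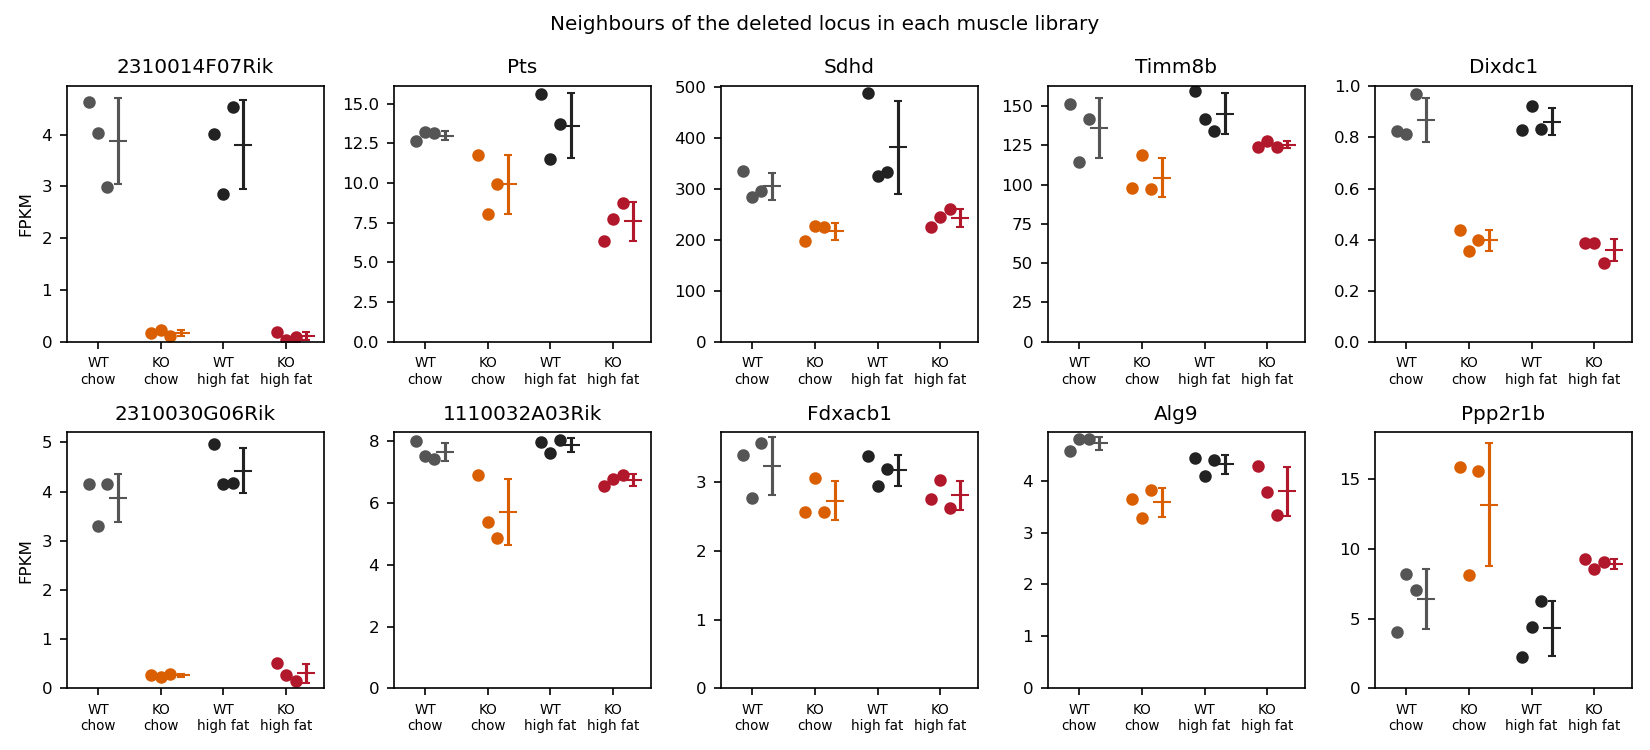
FPKM of the 10 neighbors of Cryab and Hspb2 in each library, 1 panel per gene in chromosomal order, each with its own axis from 0. Points are single mice, and the line beside them is the mean with its SD (n = 3). The KO points of 2310014F07Rik and 2310030G06Rik lie near 0, those of Dixdc1, Sdhd and Pts lie below all WT points on the same diet, and those of Ppp2r1b lie higher on high fat diet.

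The largest differences were in 2 RIKEN genes at opposite ends of the lower-coordinate side. 2310030G06Rik, next to the deleted genes, was 4.15, 3.30 and 4.17 FPKM in WT mice fed chow and 4.96, 4.16 and 4.17 FPKM in those fed high fat. The KO libraries gave 0.277, 0.226 and 0.288 FPKM on chow and 0.517, 0.267 and 0.140 FPKM with high fat feeding. The highest KO library was thus far below the lowest WT library. The KO mean was 6.81% of the WT mean on chow and 6.96% on high fat diet, differences of -1.94 and -2.06 (SE 0.12) on the log2(FPKM + 1) scale, which understates changes of genes this low.

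2310014F07Rik is also named Plet1os, a long noncoding RNA antisense to Plet1, and is the most distant of the 10 genes. The WT libraries gave 4.62, 4.02 and 2.98 FPKM on chow and 4.01, 2.85 and 4.54 FPKM with high fat feeding. The KO libraries gave 0.172, 0.226 and 0.107 FPKM on chow and 0.195, 0.0380 and 0.0907 FPKM with high fat feeding. All 6 KO libraries were near 0 and none reached the WT range. The KO mean was 4.34% of the WT mean on chow and 2.84% on high fat diet, differences of -2.05 and -2.10 (SE 0.16) on the log2(FPKM + 1) scale. Between this gene and 2310030G06Rik lie 4 others of the 10 whose KO means were all 41.7% of WT or more, so size did not follow distance.

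Dixdc1 encodes a protein with a DIX domain, the module by which Dishevelled and Axin proteins bind each other in Wnt signaling. Its levels in WT mice were 0.824, 0.812 and 0.968 FPKM on chow and 0.828, 0.923 and 0.834 FPKM with high fat feeding. The KO libraries gave 0.440, 0.356 and 0.398 FPKM on chow and 0.386, 0.385 and 0.308 FPKM with high fat feeding. The groups did not overlap, although all values were low. The KO mean was 45.8% and 41.7% of the WT mean on chow and high fat diet, differences of -0.42 and -0.45 (SE 0.05) on the log2(FPKM + 1) scale in a fit without the filter.

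Sdhd encodes a membrane anchor subunit of succinate dehydrogenase, complex II of the respiratory chain, which also oxidizes succinate in the citric acid cycle. It was 336, 284 and 296 FPKM in WT mice fed chow and 488, 325 and 333 FPKM in those fed high fat. The KO libraries gave 198, 227 and 225 FPKM on chow and 225, 244 and 261 FPKM with high fat feeding. Every KO library was below every WT library, also across diets, and WT replicate 1 on high fat diet stood above the others. KO means were 71.0% and 63.7% of WT means, differences of -0.49 and -0.63 (SE 0.15) on the log2(FPKM + 1) scale.

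Timm8b encodes a small TIM protein, a chaperone that guards membrane proteins on their way through the mitochondrial intermembrane space. It was 151, 114 and 142 FPKM in WT mice fed chow and 159, 142 and 134 FPKM in those fed high fat. The KO libraries gave 97.9, 118 and 97.1 FPKM on chow and 124, 128 and 124 FPKM with high fat feeding. The genotypes overlapped on chow, where KO replicate 2 was above WT replicate 2, and did not on high fat diet. KO means were 76.9% and 86.4% of WT means. The ratio of Sdhd to Timm8b, which share a start region, was 2.26 ± 0.200 in WT and 2.08 ± 0.205 in KO mice on chow (SD, n = 3 each). With high fat feeding the values were 2.61 ± 0.398 in WT and 1.94 ± 0.148 in KO mice.

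Pts encodes 6-pyruvoyltetrahydropterin synthase, an enzyme of the synthesis of tetrahydrobiopterin, the cofactor of nitric oxide synthases and of phenylalanine hydroxylase. The WT libraries gave 12.6, 13.2 and 13.2 FPKM on chow and 15.6, 11.5 and 13.7 FPKM with high fat feeding. The KO libraries gave 11.7, 8.06 and 9.95 FPKM on chow and 6.32, 7.71 and 8.75 FPKM with high fat feeding. KO replicate 1 on chow came close to the WT range there, and on high fat diet all KO libraries were well below it. KO means were 76.3% of WT on chow and 55.8% on high fat diet, differences of -0.37 and -0.77 (SE 0.14) on the log2(FPKM + 1) scale.

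On the other side of the deleted genes, 1110032A03Rik was 7.997, 7.53 and 7.43 FPKM in WT and 6.89, 5.39 and 4.85 FPKM in KO mice on chow. With high fat feeding the values were 7.98, 7.62 and 8.04 FPKM in WT and 6.54, 6.76 and 6.92 FPKM in KO mice. KO libraries were all lower on each diet, at means of 74.6% and 85.5% of WT. Alg9, a mannosyltransferase of the endoplasmic reticulum that extends the sugar chain later placed on proteins, had a KO mean of 75.8% of WT on chow, where the groups did not overlap, and 88.0% on high fat diet, where they did. Fdxacb1, named for its ferredoxin-fold anticodon-binding domain, overlapped on both diets, with KO means of 84.3% and 88.5% of WT. On chow Alg9 was 4.58, 4.79 and 4.80 FPKM in WT and 3.64, 3.28 and 3.81 FPKM in KO mice, and with the other diet 4.44, 4.10 and 4.40 FPKM in WT and 4.28, 3.78 and 3.34 FPKM in KO mice. Fdxacb1 lay between 2.76 and 3.56 FPKM in the WT and between 2.56 and 3.06 FPKM in the KO libraries of both diets.

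Ppp2r1b encodes the beta isoform of the scaffold subunit of protein phosphatase 2A, on which a catalytic and a regulatory subunit assemble. It was 4.02, 8.19 and 7.05 FPKM in WT mice and 15.9, 8.09 and 15.5 FPKM in KO mice on chow. With high fat feeding the values were 2.24, 4.40 and 6.23 FPKM in WT mice and 9.23, 8.52 and 9.03 FPKM in KO mice. On chow KO replicate 2 fell within the WT range while the other 2 KO libraries were far above it, and on high fat diet all KO libraries were higher. The ratio of KO to WT means was 2.05 on chow and 2.08 on high fat diet, differences of 0.92 and 0.98 (SE 0.32) on the log2(FPKM + 1) scale, with the largest SE of the 10 genes. As a share of the summed level of both scaffold isoforms, Ppp2r1b made up 5.43, 10.8 and 9.05% in WT and 19.1, 10.3 and 19.9% in KO mice on chow, and 2.55, 5.87 and 7.99% in WT and 11.3, 10.2 and 10.8% in KO mice with high fat feeding.

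Ppp2r1b was set beside adipocyte markers in each library. The summed level of Adipoq, Plin1, Lep, Cfd and Cidec was 112, 729 and 553 FPKM in WT and 1712, 815 and 1729 FPKM in KO mice on chow. With high fat feeding the values were 5.90, 108 and 385 FPKM in WT and 439, 348 and 506 FPKM in KO mice. None of the 5 was at 0 in any library. In each of the 4 groups the library with the lowest adipocyte sum was also the one with the lowest Ppp2r1b. The library with the highest sum had the highest Ppp2r1b in both WT groups but in neither KO group. All KO libraries on high fat diet had lower sums and higher Ppp2r1b than KO replicate 2 on chow. Among KO mice on chow Lep was lowest in replicate 3, at 11.8 FPKM, where Ppp2r1b was 15.5 FPKM. WT replicate 2 and KO replicate 2 on chow had like sums, 729 and 815 FPKM, and like Ppp2r1b levels, 8.19 and 8.09 FPKM. On high fat diet WT replicate 3 and KO replicate 2 had sums of 385 and 348 FPKM with Ppp2r1b at 6.23 and 8.52 FPKM. The part of the adipocyte markers in the genotype difference of Ppp2r1b was not tested, and in bulk muscle more cells of a type and more RNA per cell cannot be told apart. The lymphoid-rich KO libraries on chow are also the 2 with the highest Ppp2r1b, and the lymphoid-rich WT library, at 8.19 FPKM, is the highest of the 6 WT libraries.

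**Figure D2:**
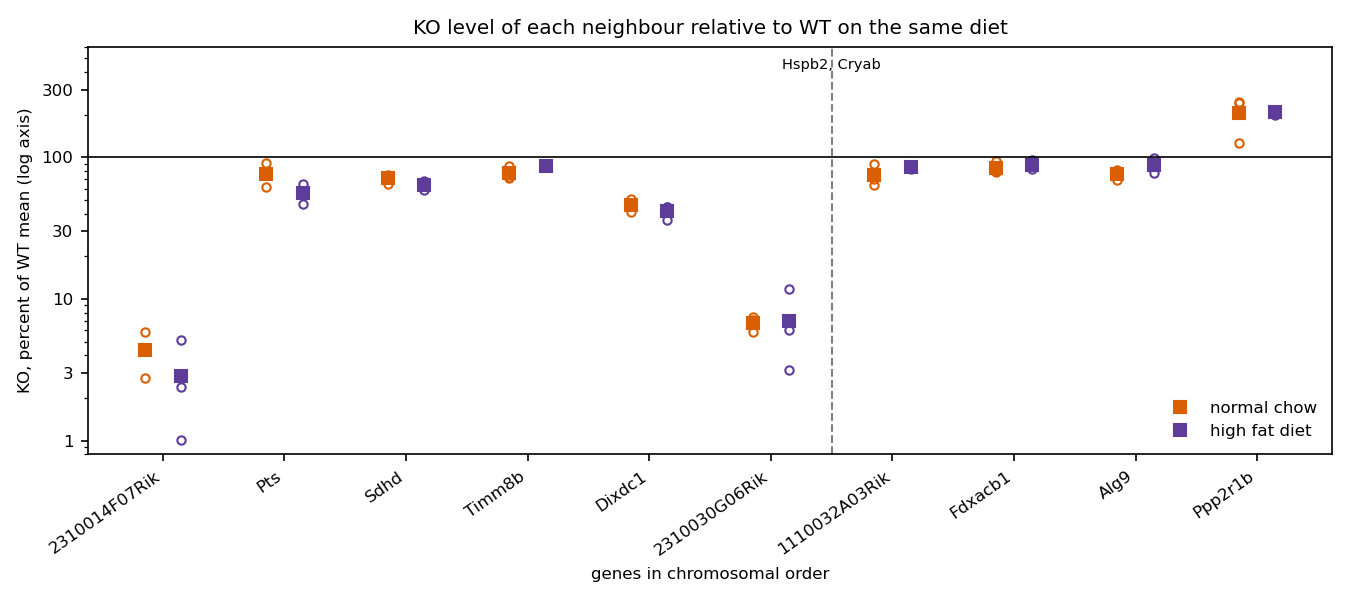
KO level of each neighbor as a percent of the WT mean on the same diet, on a log axis, with genes in chromosomal order and the dashed line at Hspb2 and Cryab. Squares are group means and open circles single KO mice (n = 3). The means of 2310014F07Rik and 2310030G06Rik lie between 2.84% and 6.96%, Dixdc1 lies at 45.8% and 41.7%, 6 genes lie between 55.8% and 88.5%, and Ppp2r1b lies at 205% and 208%.

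The response to high fat diet within each genotype was tested for the 10 genes, as it took no part in choosing them. Limma was used, with adjustment over all 11945 genes. The difference between the diet effects is also that between the 2 genotype differences, which were known when the genes were picked. Its test is therefore not independent of that choice. None of the 10 passed the test of diet in WT mice, where 0.1% of all tested genes passed, none in KO mice, where 0.0% did, and none the test of a difference between these diet effects, where again 0.0% passed. Dixdc1 was taken from a fit without the filter. At an unadjusted p under 0.05 the counts were 0, 2 and 0 of the 10, where 8.12%, 11.3% and 6.25% of all tested genes passed. The 2 were Pts, with a high fat minus chow difference in KO mice of -0.34 (SE 0.14, adjusted p = 0.44), and 1110032A03Rik, with one of 0.22 (SE 0.10, adjusted p = 0.44), both on the log2(FPKM + 1) scale. Without KO replicate 1 on chow these were -0.22 and 0.34, and without KO replicate 3 on chow that of 1110032A03Rik was 0.12.

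In WT mice 5 of the 10 genes were higher on high fat diet and 5 lower. Their differences ran from -0.52 for Ppp2r1b (adjusted p = 0.735) to 0.30 for Sdhd (SE 0.15, adjusted p = 0.653), with a median of 0.02 beside -0.01 over all tested genes. Without WT replicate 1 on high fat diet these 2 differences were -0.20 and 0.11, and that of Ppp2r1b was -0.34 without WT replicate 2 on chow and -0.78 without WT replicate 1 on chow or replicate 3 on high fat diet. That of Sdhd was 0.20 under quantile normalization. In KO mice 6 were higher and 4 lower, from -0.46 for Ppp2r1b (adjusted p = 0.550) to 0.27 for Timm8b (SE 0.12, adjusted p = 0.442), with a median of 0.04 beside 0.03. That of Timm8b was 0.11 under quantile normalization, and that of Ppp2r1b was -0.31 without KO replicate 1 and -0.75 without KO replicate 2 on chow. The tendon sum did not overlap between the diets in WT mice, nor the adipocyte sum in KO mice, and their part in these differences was not tested. Of the adipocyte markers only Cfd was lower without overlap in KO mice, at 577 to 1329 FPKM on chow and 59.9 to 112 FPKM on high fat diet. Lep was higher without overlap, at 11.8 to 42.6 FPKM on chow and 63.3 to 93.4 FPKM on high fat diet. Adipoq, Plin1 and Cidec overlapped. Timm8b was the 1 gene whose KO libraries did not overlap between diets, at 97.1 to 118 FPKM on chow and 124 to 128 FPKM on high fat diet, a pattern seen in 10.7% of tested genes. In WT mice that gene was Alg9, lower on high fat diet, against 6.88%. The difference between the diet effects of KO and WT mice ran from -0.39 for Pts to 0.18 for 1110032A03Rik, with adjusted p from 0.835 to 0.991. The 2 genes near 0 in KO mice were near 0 on both diets, and their WT levels on both diets overlapped.

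Other genes around the deleted locus were tested between genotypes. Within 1 Mb the files list 17 genes besides Cryab, Hspb2 and the 10, of which 5 were at 0 in all libraries, 5 were too low to test and 7 were tested. None of the 7 passed limma's adjusted threshold on either diet, where 0.0586% of all tested genes did on chow and 0.109% on high fat diet. The lowest adjusted p was 0.284 on chow and 0.154 on high fat diet, and 1 and 3 of the 7 had an unadjusted p under 0.05, against 16.7% and 16.2% of all tested genes. The plot of differences by distance sets these genes beside the 10.

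**Figure D3:**
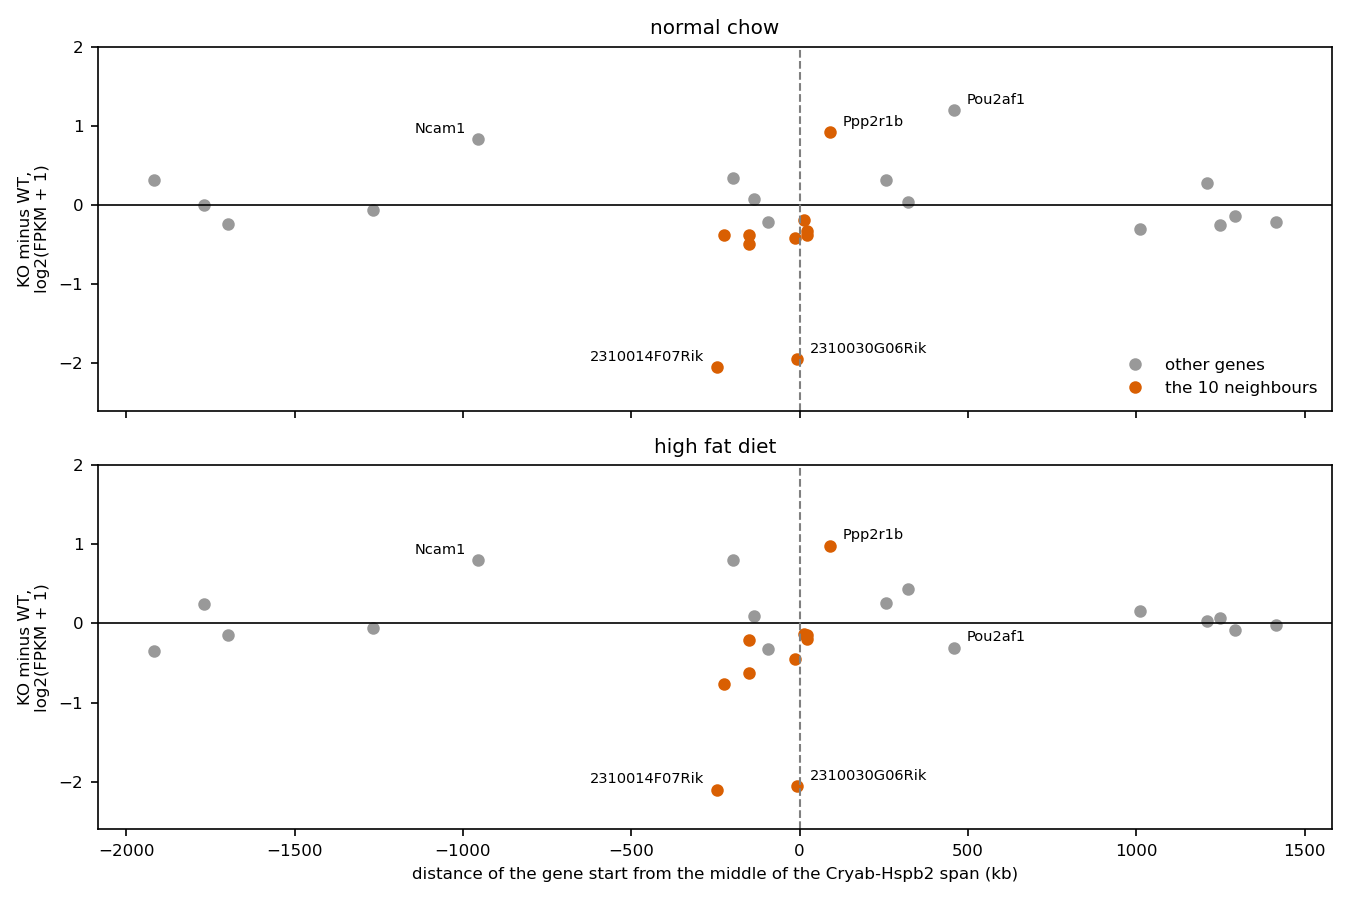
KO minus WT difference on the log2(FPKM + 1) scale of genes on chromosome 9 against the distance of their start from the middle of the deleted genes, in kb, on normal chow (upper panel) and high fat diet (lower panel). Each point is 1 gene from 3 KO and 3 WT mice, Cryab and Hspb2 are not drawn, and the dashed line marks their place. The 10 neighbors (orange) lie around the dashed line, and 9 of them lie below 0 on each diet, with 2310014F07Rik and 2310030G06Rik near -2.

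Dlat, the acetyltransferase subunit of the pyruvate dehydrogenase complex, lies between Dixdc1 and Timm8b at 91.3 kb. It was 76.2, 67.5 and 67.8 FPKM in WT and 52.9, 64.1 and 65.3 FPKM in KO mice on chow, and 104, 67.0 and 71.9 FPKM in WT and 64.2, 59.6 and 67.3 FPKM in KO mice with high fat feeding. KO libraries were all lower on chow and overlapped by a narrow margin on high fat diet, and the differences of -0.22 (adjusted p = 0.441) and -0.32 (adjusted p = 0.329) did not pass. They were -0.12 on chow without KO replicate 1 and -0.12 on high fat diet without WT replicate 1, and -0.11 on chow under quantile normalization. AU019823, which overlaps Timm8b by 81 bp, was between 3.88 and 5.19 FPKM in all libraries, with differences of 0.08 and 0.10 (adjusted p = 0.610 and 0.628). Its genotypes overlapped on both diets. Pih1d2, the next gene toward Dlat, was too low to test, at 0.120 to 0.534 FPKM in all libraries. The KO means of Pih1d2 were 176% of WT on chow and 123% on high fat diet, with overlap on both.

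Between Pts and Sdhd lie 2 genes whose KO values were higher. Il18, a cytokine gene, was 1.40, 2.69 and 1.25 FPKM in WT and 3.09, 2.07 and 2.25 FPKM in KO mice on chow, and 0.325, 0.529 and 1.37 FPKM in WT and 1.35, 2.56 and 2.06 FPKM in KO mice with high fat feeding. The groups overlapped on each diet, with differences of 0.34 (adjusted p = 0.453) and 0.80 (SE 0.25, adjusted p = 0.154). On chow it was 0.57 without WT replicate 2, 0.21 without WT replicate 3, 0.22 without KO replicate 1 and 0.23 under quantile normalization. Bco2, an enzyme that cleaves carotenoids, was under 0.5 FPKM in all libraries, with KO means of 298% and 244% of WT. In a fit without the filter its adjusted p was 0.323 on chow and 0.326 on high fat diet.

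Beyond Ppp2r1b the first gene is Sik2, a kinase of the AMPK family, with differences of 0.32 and 0.26 (adjusted p = 0.551 and 0.740). Layn, a hyaluronan receptor, had differences of 0.04 and 0.43 (adjusted p of the latter 0.166). Btg4 and 4833427G06Rik were listed at 0. Pou2af1, a transcriptional coactivator gene of B cells at 457 kb, was at 6.30, 7.78 and 10.1 FPKM in the 3 lymphoid-rich libraries and at most 0.582 FPKM in the other 9. Of the 7 tested genes within 1 Mb only Ncam1, the neural cell adhesion molecule, did not overlap on either diet, at 952 kb. It was 2.63, 2.82 and 2.35 FPKM in WT and 2.94, 4.57 and 11.1 FPKM in KO mice on chow, and 2.52, 3.33 and 3.49 FPKM in WT and 5.98, 8.94 and 4.20 FPKM in KO mice with high fat feeding. The differences were 0.84 and 0.80, with an adjusted p of 0.284 on each diet, and that on chow was 0.38 without KO replicate 3. Non-overlap in 1 direction on both diets was found in 14.3% of these 7 genes, in 5.38% of the 595 tested genes of chromosome 9 farther than 5 Mb away and in 5.47% of the 11155 tested genes on other chromosomes. Between 1 and 2 Mb it was found in Zw10 alone, and between 2 and 5 Mb in none of the 15 tested genes on one side and the 19 on the other.

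Partner genes, 55 of 7 lists, were also tested between genotypes. They lie outside this locus and share a pathway, a complex, a domain or part of a name with 1 of the 10. At least 1 of them, Fdx1, lies on chromosome 9, 1187 kb from the deleted genes. On chow 0 passed limma's adjusted threshold, against 0.0586% of all tested genes, while 13 had an unadjusted p under 0.05, against 16.7%. On high fat diet 1 passed, against 0.109%, and 7 had an unadjusted p under 0.05, against 16.2%. The median difference was -0.11 on chow and -0.05 on high fat diet, on the log2(FPKM + 1) scale.

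All 5 tested partners of Sdhd in succinate dehydrogenase and its assembly had lower KO means on both diets, with medians of -0.20 and -0.28, and none passed. Sdha, the flavoprotein subunit, had differences of -0.25 (adjusted p = 0.390) on chow and -0.40 (adjusted p = 0.222) on high fat diet. Sdhb, the iron-sulfur subunit, had -0.16 and -0.40 (adjusted p = 0.555 and 0.218), and Sdhc, the other membrane anchor, -0.30 and -0.28 (adjusted p = 0.335 and 0.396). Sdhd was also lower when set against these 3 subunits in the same library. Its ratio to their geometric mean lay between 0.773 and 0.814 in WT and between 0.619 and 0.716 in KO mice on chow, and between 0.790 and 0.828 in WT and between 0.638 and 0.690 in KO mice with high fat feeding. The genotypes did not overlap, and KO means of the ratio were 83.7% and 83.2% of WT. As Sdhd was picked with its genotype values known, this ratio is a description only. How often ratios of other genes separate was not counted.

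**Figure D4:**
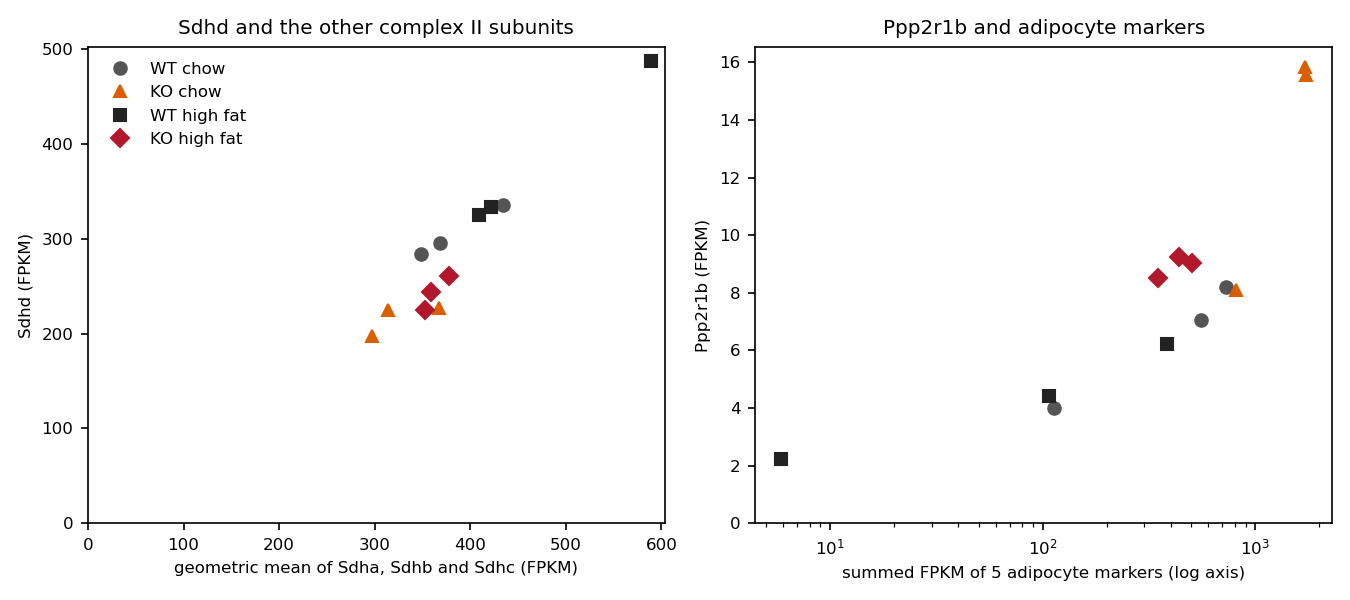
Left, Sdhd against the geometric mean of Sdha, Sdhb and Sdhc, both in FPKM. Right, Ppp2r1b in FPKM against the summed FPKM of 5 adipocyte markers on a log axis. Each point is 1 mouse, with 3 in each of the 4 groups. KO points lie below WT points of like complex II level on the left. On the right WT and KO replicate 2 on chow lie together, at sums of 729 and 815 FPKM. On high fat diet WT replicate 3 and KO replicate 2, at sums of 385 and 348 FPKM, have Ppp2r1b at 6.23 and 8.52 FPKM.

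The single partner gene that passed was Pcbd1 of the tetrahydrobiopterin list. It encodes pterin-4a-carbinolamine dehydratase, which recycles the cofactor that Pts helps to make. Pcbd1 was 0.320, 0.710 and 0.669 FPKM in WT and 1.02, 1.03 and 0.914 FPKM in KO mice on chow, and 0.234, 0.633 and 0.609 FPKM in WT and 2.15, 2.26 and 1.72 FPKM in KO mice with high fat feeding. KO libraries were all higher on each diet, and Pcbd1 reached 1 FPKM in 5 KO libraries and in none of the WT libraries. It thus passed the filter for testing through KO libraries alone, where it was high, and its call is given with that limit. The difference on high fat diet was 1.04 (SE 0.15, adjusted p = 0.0234) on the log2(FPKM + 1) scale, and on chow it was 0.35 (SE 0.15, adjusted p = 0.284). The call on high fat diet was lost without WT replicate 1 or without any 1 of the 3 KO replicates on that diet, and in the fit with the replicate number as a block. In this list of 6 tested genes 4 had lower and 2 higher KO means on each diet.

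The other lists held no gene that passed. The small TIM list of Timm8b, 5 tested genes, had medians of -0.11 and -0.19, with Timm8a1 at -0.39 (adjusted p = 0.239) on high fat diet. The list of ALG enzymes that act with Alg9, 13 tested genes, had medians of 0.00 and 0.06. Protein phosphatase 2A, 15 tested genes, had medians of -0.16 and -0.03, and Ppp2r1a, the alpha scaffold isoform, had differences of -0.06 and -0.03. The 6 DIX-domain genes had medians of -0.04 and -0.06. The 5 phenylalanyl-tRNA synthetase and ferredoxin genes, set beside Fdxacb1 for its domain or its name, had medians of -0.14 and -0.05.

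Among tested genes more than 2 Mb from the deleted locus, those whose pattern over the 12 libraries was most like that of a neighbor were sought by Pearson's r on the log2(FPKM + 1) scale. For 2310030G06Rik they were Zfp574 (r = 0.92) and Fam120b (r = 0.90), and for 2310014F07Rik Tspan2 (r = 0.91) and Fam120b (r = 0.90). For Dixdc1 they were Zfp574 (r = 0.94) and Dcdc2c (r = 0.90). For Sdhd they were Dusp22 and Mina (r = 0.97 each), and for Timm8b Arhgef10l and Rwdd1 (r = 0.97 each). The libraries fall into 2 genotypes that do not overlap in 2310030G06Rik, 2310014F07Rik, Dixdc1 and Sdhd, nor in Zfp574, Fam120b, Tspan2, Dcdc2c and Dusp22, so these r values include that difference. Zfp574 was 4.31 to 4.58 FPKM in WT and 3.78 to 4.08 FPKM in KO mice, a far smaller change than that of 2310030G06Rik.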

How the data were processed

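RNA of hind limb muscle from 12 mice was sequenced by the authors with the Illumina TruSeq RNA kit, which does not mark strand, as paired-end reads. Per the labels they used TopHat2 2.0.8b, Cuffdiff 2.1.1 and mm10. They deposited 1 FPKM value per gene symbol and library. The unit was read from the values and these tools. The 10 genes and all gene lists were chosen with earlier results of these data known.

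Each file held 23179 rows and 22923 symbols, and the highest-mean row of a repeated symbol was kept. The 11945 genes of at least 1 FPKM in at least 3 libraries were fitted on log2(FPKM + 1) with limma 3.58.1 (R 4.3.3, variance trend on), using 4 group means, which left 8 residual degrees of freedom. The two-sided p-values were adjusted by Benjamini-Hochberg over all genes tested, with a threshold of 0.05. Dixdc1 was taken from the fit without the filter. No p-value was given for the 10 genes between genotypes. Non-overlap means that every KO library lay beyond every WT library. The methods call the samples independent. Reads per library are unknown, so no counting intervals were given. The fit was tested on simulated data.

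Positions came from GENCODE M21 and promoter windows from RefSeq GRCm38.p6, and 22476 symbols were placed. Partner lists held 66 genes, of which 59 were in the files. Named genes were the 10, Cryab and Hspb2, the 4 nearest other genes on each side, any neighbor or partner past the threshold and, for 5 of the 10, the 2 genes most alike. Bco2, Plet1, Pou2af1, Ncam1, Zw10 and the partner genes other than Pcbd1 fall outside that rule and were chosen after their values were seen. Other computation used Python 3.11.15, NumPy 2.4.6 and pandas 2.3.3. Alternatives were a pseudocount of 0.1, other filters, size factors, quantile normalization, no trend, fits of only 2 groups, grouping by the genotype label, leaving out each library and, chosen after seeing the data, leaving out the lymphoid-rich libraries. The replicate number was tried as a block.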

Additional observations from a re-analysis of the deposited data

How the results depend on the processing

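With genotype taken from the conflicting label, the genes not overlapping between genotypes went from 7 to 2 of 10 on chow and from 8 to 3 on high fat diet. Under that label the high fat differences turned, on the log2(FPKM + 1) scale, to 1.56 for 2310014F07Rik, 0.72 for Pts, 0.55 for Sdhd, 0.14 for Timm8b, 0.30 for Dixdc1, 1.40 for 2310030G06Rik, 0.17 for 1110032A03Rik, 0.047 for Fdxacb1, 0.0081 for Alg9 and -0.73 for Ppp2r1b. So did Dlat at 0.30, Il18 at -0.56 and Ncam1 at -0.057 on chow and -0.94 on high fat diet, and the diet differences of Sdhd at -0.27 and Ppp2r1b at 0.16 in WT and of Pts at 0.29 in KO mice. That label counts the 3 WT libraries on high fat diet, with Cryab at 650 to 837 FPKM, as KO. With 1 library left out, the genes not overlapping were 7 to 10 on chow and 8 to 10 on high fat diet, as fewer libraries overlap less. Without the 3 lymphoid-rich libraries, which leaves 2 WT and 1 KO on chow, they were 10. The partner call of Pcbd1 on high fat diet was lost, leaving 0, with genotype by label, only the 2 groups, a pseudocount of 0.1 or the replicate block. With 1 library left out the count was 0 to 1. It was also 0 with at least 1 FPKM in every sample, a filter that removes Pcbd1 before any test and so does not bear on its call. Without a filter the count was 1. In the tests of diet none of the 10 genes was called under any alternative, and between genotypes none of the other neighbors was. Same-numbered deviations from the group means correlated from -0.81 to 0.39. With 3 libraries per group these values cannot show whether the replicate number pairs the mice. With the number as a block, 0 of the 10 genes were called in the tests of diet and 0 of the other neighbors and 0 of the partners between genotypes, and the 10 were not counted between genotypes. With a pseudocount of 0.1 the differences of low genes grew, to -3.89 and -4.28 for 2310014F07Rik and -3.45 and -3.57 for 2310030G06Rik. Between genotypes, Pts on chow was -0.24 without KO replicate 2, Timm8b on high fat diet -0.14 without WT replicate 1 and Alg9 on high fat diet -0.08 without KO replicate 3. Under quantile normalization Timm8b on chow was -0.22 and Fdxacb1 -0.28. Depth in reads is unknown, so how far sampling limits these low values cannot be given.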
